A study of Mus musculus with 8 samples.

Results

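Plau, Plat, Plaur and Serpine2 encode proteins that switch the plasminogen system on and off at the cell surface and in the matrix around cells. Their transcripts were followed in stromal cells of the mouse uterus that carry the label Erbb3f/f or Erbb3d/d. They were found by symbol among the 23420 gene symbols of the count tables, so 4 genes of 23420 are described in depth. These 4 were chosen because of how they read out in these same libraries between the labels. The difference between labels is therefore given for them as a description, with a standard error (SE) and no test. All 4 had enough reads to enter the fit across all genes.

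Polyadenylated RNA was sequenced in 8 libraries of uterine stromal cells labelled day 3, with 4 labelled Erbb3f/f and 4 labelled Erbb3d/d. In common mouse notation f stands for a floxed allele, with loxP sites on both sides of the targeted stretch, and d for what Cre recombination leaves. The labels do not spell this out, name no Cre line, strain or age, do not say from which event the day is counted, and do not say whether each library is a separate animal. P-values here therefore measure the spread between these samples, which may be technical. Because Erbb3 itself did not come out lower under the Erbb3d/d label, as shown next, every direction follows the labels only.

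Between 8578575 and 12854367 reads fell in genes in each library, and 14598 genes were tested. Erbb3, the receptor tyrosine kinase that the genotype names, had 7.40, 10.6, 8.25 and 12.3 CPM (reads scaled to the library total) in Erbb3f/f replicates 1 to 4. It had 7.37, 14.3, 17.7 and 16.2 CPM in Erbb3d/d replicates 1 to 4 (log2 fold change 0.53, SE 0.28, edgeR adjusted p = 0.485, and p = 0.2 in a two-sided exact permutation test). These counts pool all exons, so loss of a single exon would not show in them. All 14 stromal markers looked at were detected in each library and summed to 14031 to 22687 CPM, against 1009 to 2550 CPM for 15 epithelial markers. On the first principal component of all tested genes, which held 36.7% of the variance, Erbb3d/d replicate 2 scored -19.8, inside the Erbb3f/f range, and Erbb3d/d replicates 3 and 4 lay farthest from them at 38.4 and 48.0.

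Plasminogen is a circulating zymogen made mainly by the liver. Urokinase (Plau) and tissue plasminogen activator (Plat) are serine proteases that cut it to plasmin, which degrades fibrin and matrix proteins and activates other proteases and growth factors. The urokinase receptor (Plaur) is anchored in the membrane by a lipid and concentrates urokinase at the cell surface, while serpins such as protease nexin 1 (Serpine2) trap the activators in inactive complexes that cells then take up. In the rodent uterus this system is known for its part in tissue remodelling around implantation.

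Both activators belong to the same protease family, and their coding sequences around the active site are shown because the counts of Plau and Plat can be told apart only where their letters differ. Each stretch holds 63 coding bases of the GENCODE vM21 transcript (GRCm38), 5′ to 3′, bases 1102 to 1164 of 1302 in Plau and 1498 to 1560 of 1680 in Plat. The capitals mark the codon of the catalytic serine.
Plau: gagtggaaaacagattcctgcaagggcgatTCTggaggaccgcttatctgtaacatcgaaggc
Plat: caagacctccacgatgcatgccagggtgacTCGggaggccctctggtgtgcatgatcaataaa
The stretches share 33 of 63 bases (52.4%). Over the whole transcripts, the longest run that Plau and Plat share is 14 bases, and the longest between any pair of the 4 genes is 18 bases, between Plau and Serpine2. The sequencing reads were 150 bp long. No exon of the 4 genes overlaps the position of an exon of another gene in that annotation. Sequence shared with genes other than these 4 was not searched for.

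Plau was the activator whose libraries separated by label. It lies on chromosome 14 at 20836660 to 20843385 on the plus strand (GRCm38). Its level was 21.3, 14.9, 19.5 and 21.4 CPM in Erbb3f/f replicates 1 to 4, from 142 to 248 reads. Erbb3d/d replicates 1 to 4 had 59.6, 31.3, 38.8 and 69.1 CPM of Plau, from 268 to 788 reads. The groups did not overlap, and the lowest Erbb3d/d library, replicate 2, still stood above the highest Erbb3f/f library. The means were 19.3 ± 3.06 CPM and 49.7 ± 17.6 CPM (SD, n = 4 per label), a log2 fold change of 1.37 (SE 0.25). The Erbb3d/d libraries were more spread than the Erbb3f/f libraries, with an SD of 0.53 against 0.24 on the log2 CPM scale. Counting error in single libraries was 3.56% to 8.39% of the value.

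Plat, the other activator, was also higher under the Erbb3d/d label, with an overlap. It lies on chromosome 8 at 22757727 to 22782844 on the plus strand (GRCm38). Its level was 138, 178, 174 and 289 CPM in Erbb3f/f replicates 1 to 4. Erbb3d/d replicates 1 to 4 had 341, 239, 539.7 and 528 CPM of Plat. Erbb3d/d replicates 1, 3 and 4 stood above every Erbb3f/f library, and Erbb3d/d replicate 2 stood below Erbb3f/f replicate 4. The means were 195 ± 65.3 CPM and 412 ± 147 CPM (SD, n = 4 per label), a log2 fold change of 1.08 (SE 0.30). Plat rested on 1418 to 6850 reads, so that its spread between libraries was far above counting error.

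Plaur, the receptor that binds urokinase, did not separate the labels. It lies on chromosome 7 at 24462484 to 24475968 on the plus strand (GRCm38). Its level was 8.77, 6.60, 14.1 and 13.9 CPM in Erbb3f/f replicates 1 to 4. Erbb3d/d replicates 1 to 4 had 10.9, 8.63, 13.6 and 18.4 CPM of Plaur. Replicate 2 was the lowest library under each label, and only Erbb3d/d replicate 4 exceeded the highest Erbb3f/f library. The means of 10.9 ± 3.77 CPM and 12.9 ± 4.21 CPM (SD, n = 4 per label) gave a log2 fold change of 0.25 (SE 0.30), which is within its error. Plaur had the fewest reads of the 4 genes, 63 to 210, and its counting error reached 12.6% of the value.

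Serpine2, the serpin that inhibits urokinase, tissue plasminogen activator, plasmin and thrombin, pointed the other way with wide overlap. The gene is on the minus strand of chromosome 1, from 79794197 to 79861180 (GRCm38). Its level was 205, 243, 352 and 339.9 CPM in Erbb3f/f replicates 1 to 4. Erbb3d/d replicates 1 to 4 had 318, 261, 169 and 170.5 CPM of Serpine2. Erbb3d/d replicates 3 and 4 were the lowest of all 8 libraries, while Erbb3d/d replicates 1 and 2 lay inside the Erbb3f/f range. The means were 285 ± 72.3 CPM and 229.5 ± 73.1 CPM (SD, n = 4 per label), and the log2 fold change of -0.31 (SE 0.25) was close to its error.

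**Figure D1:**
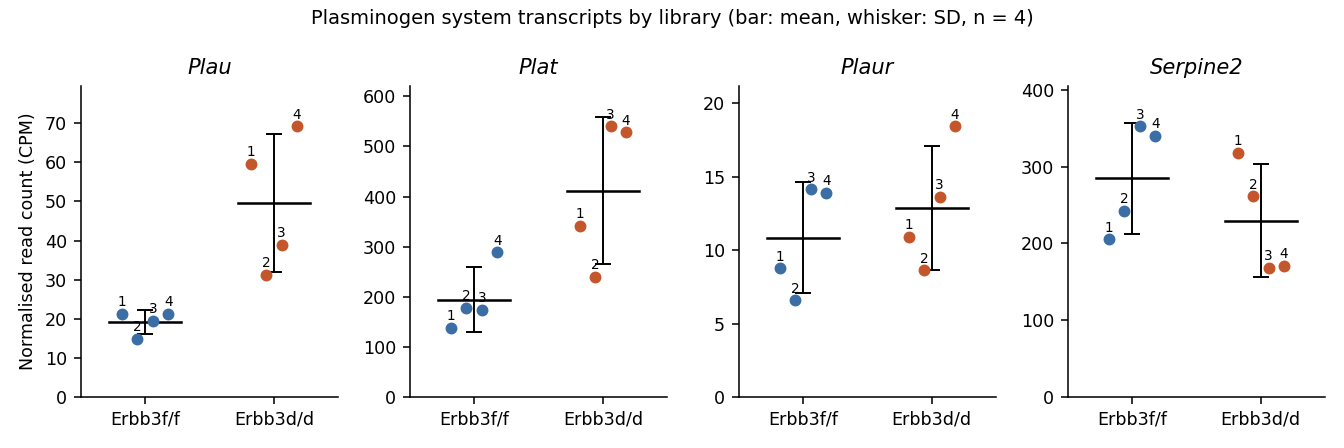
Normalised read count in CPM of Plau, Plat, Plaur and Serpine2 (vertical axes from 0, each gene on its own scale) by label, Erbb3f/f or Erbb3d/d. Each point is 1 library with its replicate number, the bar is the mean and the whisker the SD of 4 libraries; only Plau has 4 Erbb3d/d points that all lie above the Erbb3f/f points.

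Across all genes, edgeR's quasi-likelihood test called 0 of 14598 genes (0%) at an adjusted p under 0.05, with 1695 at an unadjusted p under 0.05, and it called 0 of the 4 members. DESeq2 called 271 of 15163 genes (1.79%), Plau and Plat among them. Without Erbb3d/d replicate 2, edgeR called 259 of 14774 genes (1.75%), of which Plau was 1. Non-overlap of the labels with Erbb3d/d higher was seen for 1 of the 4 members, Plau, and for 374 of the genes tested (2.56%). Non-overlap with Erbb3d/d lower was seen for 0 members and for 362 genes (2.48%). Since the members were chosen from this contrast, nothing is read from these counts.

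Levels between genes were compared per kilobase of exon of protein-coding transcripts and per library total (RPKM). In Erbb3f/f the order by mean RPKM was Serpine2 at 123 ± 31.2, Plat at 77.1 ± 25.9, Plau at 8.23 ± 1.31 and Plaur at 7.21 ± 2.50 (SD, n = 4 per label). Serpine2 and Plat overlapped between libraries, although Serpine2 was above Plat within each of the 4 libraries, and Plau and Plaur overlapped. Only the step from Plat to Plau was wider than the spread. Serpine2 and Plat were thus abundant transcripts, above 97.5% and 97.8% of the tested genes by mean RPKM over all 8 libraries, while Plau stood above 64.2% and Plaur above 44.4%.

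In Erbb3d/d the order by mean RPKM was Plat at 163 ± 58.1, Serpine2 at 99.2 ± 31.6, Plau at 21.2 ± 7.53 and Plaur at 8.57 ± 2.80 (SD, n = 4 per label). Plat and Serpine2 overlapped, and Plat exceeded Serpine2 in 2 of the 4 libraries, replicates 3 and 4. Plau was above Plaur in each of the 4 libraries, with no overlap of their ranges. RPKM between genes depends on which exons count as the gene. With every annotated exon included, mean RPKM in Erbb3f/f was 34.4 for Serpine2, 31.2 for Plat, 8.14 for Plau and 4.15 for Plaur, and the ranges of Plau and Plaur no longer overlapped there. The highest Plat library of Erbb3f/f was then at 46.3, above the highest Serpine2 library at 42.5. In Erbb3d/d the means were then 66.0 for Plat and 27.7 for Serpine2. The order of Plat and Serpine2 within a library thus depends on the exons counted.

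**Figure D2:**
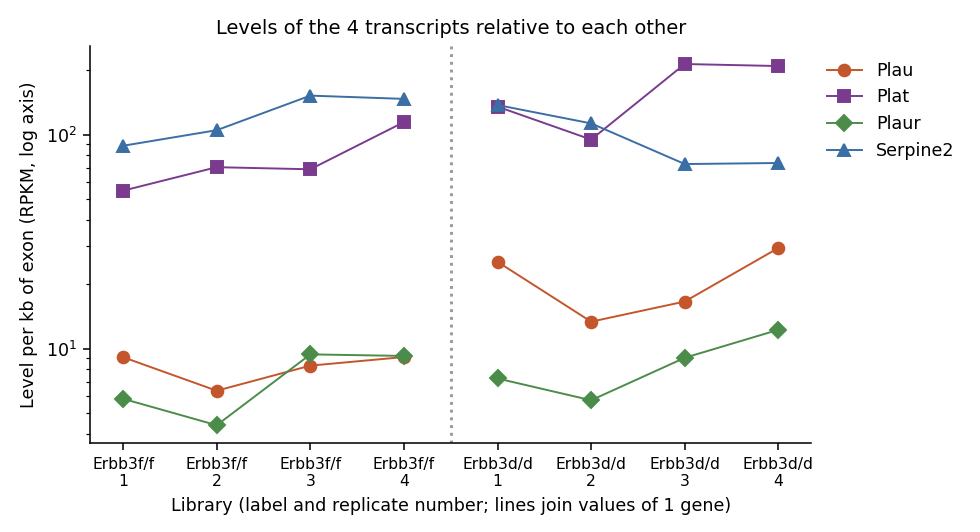
Level of the 4 transcripts in RPKM (vertical log axis) in each of the 8 libraries (horizontal axis), with lines joining the values of 1 gene within a label. Serpine2 lies above Plat in the 4 Erbb3f/f libraries and below it in Erbb3d/d replicates 3 and 4, and Plau lies above Plaur in the 4 Erbb3d/d libraries.

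A ratio taken within a library does not depend on the scaling of that library. Its sign depends on the exon lengths used, while the difference between labels does not. The log2 ratio of Plat to Serpine2 in RPKM, activator over inhibitor, was -0.70, -0.57, -1.14 and -0.36 in Erbb3f/f replicates 1 to 4. It was -0.02, -0.25, 1.55 and 1.51 in Erbb3d/d replicates 1 to 4, so the labels did not overlap, although Erbb3d/d replicates 1 and 2 lay close to the Erbb3f/f range. The means were -0.69 ± 0.33 and 0.70 ± 0.97 (SD, n = 4 per label), a difference of 1.39. The same ratio for Plau averaged -3.88 ± 0.41 under Erbb3f/f and -2.24 ± 0.73 under Erbb3d/d (SD, n = 4 per label), a difference of 1.64 with no overlap.

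Plau over its receptor Plaur had a mean log2 RPKM ratio of 0.25 ± 0.40 under Erbb3f/f and 1.29 ± 0.39 under Erbb3d/d (SD, n = 4 per label), a difference of 1.05 with no overlap. The ratio of the activators to each other did not separate the labels. Plat over Plau averaged 3.19 ± 0.47 and 2.94 ± 0.54 (SD, n = 4 per label), and the libraries overlapped. All of these ratios, also those to Serpine2, are built from the values that chose the genes and carry no test. Plau alone already separated the labels, and non-overlap was not counted for ratios of other genes.

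The 4 transcripts varied among libraries of 1 label more than most genes of like level. The SD of log2 CPM within labels was 0.41 for Plau, 0.51 for Plat, 0.49 for Plaur and 0.42 for Serpine2. Among tested genes within 0.5 log2 units of the same level, 90.2% had a smaller SD than Plau, 96.9% than Plat, 83.4% than Plaur and 94.6% than Serpine2. Over the 8 libraries, which share the labels and the whole-profile spread, Plau and Plat had a Pearson r of log2 CPM of 0.80, and 0.41 once the label means were removed. Plaur had an r of 0.549 with Plau and 0.659 with Plat, and 0.642 and 0.713 once the label means were removed. Serpine2 had -0.365, -0.439 and -0.108 with Plau, Plat and Plaur, and -0.0053, -0.208 and 0.014 once the label means were removed. These correlations describe 8 libraries and carry no test.

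The genes whose log2 CPM followed each member most closely over the 8 libraries were searched among 11040 tested genes with a mean of at least 10 CPM. Plau was followed most closely by Krtcap3 (Pearson r 0.97), Ezh1 (0.97) and Mtss1 (0.96). Plat was followed by App (0.99), Plk1 (0.99) and Mboat1 (0.99). Plaur was followed by Tcirg1 (0.97), Rab27b (0.97) and B2m (0.96), and Serpine2 by Frzb (0.97), Tmem29 (0.93) and Szrd1 (0.93). These r values keep the label means. Once the label means were removed, r was 0.961, 0.965 and 0.864 for Krtcap3, Ezh1 and Mtss1 with Plau. For the genes named with the other members it was then 0.92 to 0.974. With 8 libraries and the label means left in, an r above 0.9 was found for 208 genes with Plat, 77 with Plau, 56 with Plaur and 11 with Serpine2.

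The members were set beside markers of the cell types that a preparation of uterine stroma could hold, since in bulk samples fewer cells of a type and less RNA per cell cannot be told apart. Epithelial markers were higher in Erbb3d/d for 13 of 15 genes, with summed levels of 1009 to 1658 CPM under Erbb3f/f and 1545 to 2550 CPM under Erbb3d/d. Their mean log2 CPM was 6.02 ± 0.31 and 6.56 ± 0.36 (SD, n = 4 per label; two-sided exact permutation test, p = 0.0571, adjusted over 5 lists 0.143). The most abundant of them were Cldn3 (262 and 225 CPM in Erbb3f/f and Erbb3d/d), Cdh1 (182 and 272 CPM) and Krt8 (162 and 274 CPM). No listed marker of any type was at 0 reads in any library.

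Both activators ran with these epithelial markers over the 8 libraries, with the label means left in. The activators and the marker mean were all higher under Erbb3d/d, so each r holds that difference. No r with the marker mean was taken within a label. Between log2 CPM and the marker mean over the 8 libraries, Plat had a Pearson r of 0.833 (Spearman's rho 0.81) and Plau had 0.685 (rho 0.833). Erbb3d/d replicates 3 and 4 had the highest epithelial means, 6.83 and 6.91, and the highest Plat levels. Adding the epithelial mean to the model as a covariate gave Plat a log2 fold change of 0.49 (SE 0.32). With Erbb3d/d replicates 1 and 2 only, whose epithelial means of 6.21 and 6.30 lie within or next to the Erbb3f/f range of 5.58 to 6.29, it was 0.58 (SE 0.30). Of these, Erbb3d/d replicate 2 had 239 CPM of Plat and scored inside the Erbb3f/f range on the first principal component. Erbb3d/d replicate 1 had 341 CPM, above every Erbb3f/f library. The part of epithelial RNA in the Plat difference was not tested.

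For Plau, the log2 fold change was 1.21 (SE 0.33) with the epithelial covariate. It was 1.24 (SE 0.25) with Erbb3d/d replicates 1 and 2 only, a subset that keeps Erbb3d/d replicate 1, the library with the highest smooth muscle mean (8.83). The part of epithelial RNA in the Plau difference was not tested. With the label means left in, Serpine2 ran against the epithelial mean (r -0.776, rho -0.595) and with the stromal mean (r 0.821, rho 0.81). Its log2 fold change was 0.12 (SE 0.23) with the epithelial covariate and 0.03 (SE 0.22) with Erbb3d/d replicates 1 and 2 only, so its lower mean rested on Erbb3d/d replicates 3 and 4. Those libraries also had the lowest stromal means, 9.54 and 9.36, against 9.70 to 9.98 in Erbb3f/f. The part of epithelial or stromal RNA in the Serpine2 difference was not tested.

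**Figure D3:**
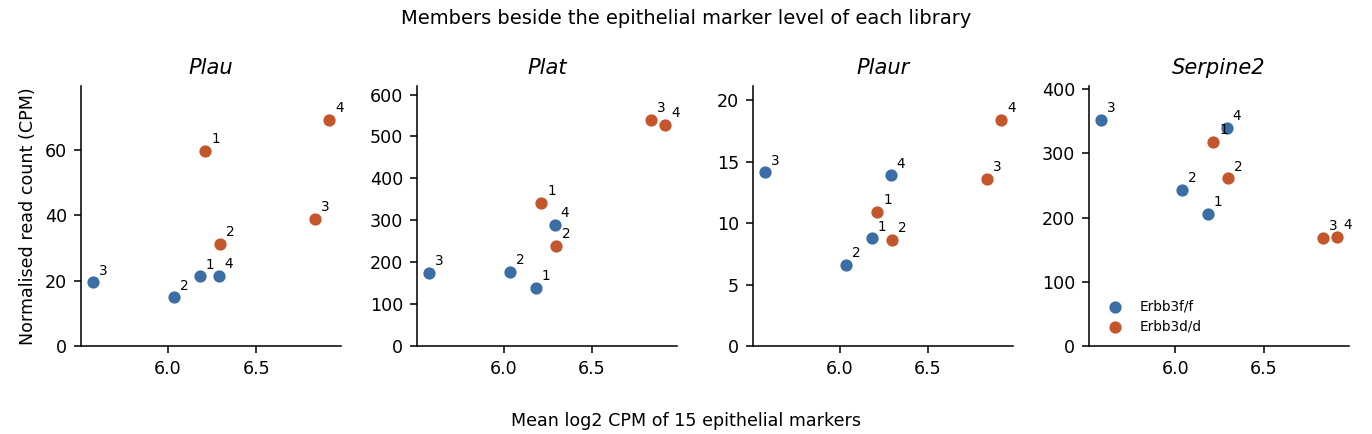
Normalised read count in CPM of each member (vertical axes from 0) against the mean log2 CPM of 15 epithelial markers in the same library (horizontal axis). Each point is 1 library with its replicate number; Plat is highest and Serpine2 lowest in Erbb3d/d replicates 3 and 4, where the marker mean is 6.83 and 6.91.

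Smooth muscle markers were higher in Erbb3d/d for 9 of 10 genes, with summed levels of 1825 to 3024 CPM under Erbb3f/f and 2924 to 6102 CPM under Erbb3d/d. Their mean log2 CPM was 7.30 ± 0.44 and 8.13 ± 0.51 (SD, n = 4 per label; two-sided exact permutation test, p = 0.0571, adjusted 0.143). Over the 8 libraries, with the label means left in, Plau had an r of 0.756 (rho 0.762) with this mean. With this mean as a covariate the Plau log2 fold change was 1.05 (SE 0.35). The part of muscle RNA in the Plau difference was not tested.

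Stromal markers were higher in Erbb3d/d for 4 of 14 genes (mean log2 CPM 9.84 ± 0.11 and 9.62 ± 0.21, SD, n = 4 per label; two-sided exact permutation test, p = 0.143, adjusted 0.238). Endothelial markers were higher for 11 of 12 genes, at summed levels of 259 to 535 CPM and 276 to 569 CPM (exact permutation test, p = 0.429, adjusted 0.536). Of 12 immune markers, 11 were in the tables and 5 were higher, at 1384 to 3071 CPM and 1775 to 2246 CPM (exact permutation test, p = 0.686, adjusted 0.686). Plaur ran with the immune markers (r 0.767, rho 0.952) and against the endothelial markers (r -0.686, rho -0.786) over 8 libraries, with the label means left in. The Plaur log2 fold change was 0.42 (SE 0.20) with the immune mean as a covariate and 0.50 (SE 0.23) with the endothelial mean. With the smooth muscle mean it was 0.68 (SE 0.43), and with the epithelial mean -0.01 (SE 0.43). The part of these cell types in the Plaur values was not tested.

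The other genes of the plasminogen system were read from a list of 48 genes in 6 roles. Of these, 34 were tested and edgeR called 0 at an adjusted p under 0.05, while 6 of the 34 had an unadjusted p under 0.05, beside 1695 of the 14598 genes tested. Point estimates were higher in Erbb3d/d for 20 and lower for 14, with a median log2 fold change of 0.07, beside -0.01 for all genes tested, where 7000 were higher and 7598 lower. None of the 34 separated the labels without overlap. The other 14 genes had at most 29 reads in any library.

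Among the other inhibitors, 5 of 8 were tested and none was called. The 4 of them that are plotted all had positive estimates, from 0.16 for Serping1 to 0.54 (SE 0.45) for Serpinb2, a serpin that inhibits urokinase, opposite in sign to the Serpine2 estimate. With the smooth muscle covariate Serping1 was at -0.13 (SE 0.30). Serping1, the C1 inhibitor, was the most abundant of them per length, at 328 ± 25.8 CPM under Erbb3f/f and 366 ± 118 CPM under Erbb3d/d (SD, n = 4 per label), a log2 fold change of 0.16 (SE 0.21).

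Plasminogen itself (Plg) had at most 2 reads in any library. Of the proteins that hold plasminogen at the cell surface, Anxa2, S100a10 and Plgrkt were tested, and all 3 had negative estimates, none called. S100a10, the plasminogen-binding partner of annexin A2, had 244 ± 65.2 CPM and 192 ± 14.4 CPM (SD, n = 4 per label), a log2 fold change of -0.35 (SE 0.17), and -0.70 (SE 0.17) with the smooth muscle covariate. Of the 8 clearance and matrix receptors tested, 5 had positive and 3 negative estimates. Lrp1, the endocytic receptor that takes up complexes of activator and serpin, had 709 ± 156 CPM and 736 ± 61.4 CPM (SD, n = 4 per label), a log2 fold change of 0.05 (SE 0.15).

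The partners of the urokinase receptor comprise integrins and vitronectin. All 7 were tested, with 5 positive and 2 negative estimates. Itgb1, the integrin beta 1 chain, had 538 ± 20.2 CPM and 543 ± 34.9 CPM (SD, n = 4 per label), a log2 fold change of 0.01 (SE 0.09).

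The smallest p-values of the list came from proteases and receptors that act beside plasmin, and none passed over all genes. Thbd, the endothelial thrombin receptor thrombomodulin, had 203 ± 25.3 CPM under Erbb3f/f and 301 ± 75.9 CPM under Erbb3d/d (SD, n = 4 per label; log2 fold change 0.57, SE 0.17, edgeR adjusted p = 0.296). F3, tissue factor, had a log2 fold change of 0.41 (SE 0.14, edgeR adjusted p = 0.314). F2rl1, the protease-activated receptor cut by trypsin-like proteases, had 0.79 (SE 0.26, edgeR adjusted p = 0.319), but 0.08 (SE 0.23) with the epithelial covariate and 0.24 (SE 0.21) with Erbb3d/d replicates 1 and 2 only. F2r, the thrombin receptor and the most abundant per length of this role, had 630.5 ± 101 CPM and 330.1 ± 194 CPM (SD, n = 4 per label; log2 fold change -0.93, SE 0.36, edgeR adjusted p = 0.377). The F2r value was -0.31 (SE 0.32) with the epithelial covariate and -0.42 (SE 0.23) with Erbb3d/d replicates 1 and 2 only. In that subset Erbb3d/d replicate 1 had 338 CPM of F2r, below the Erbb3f/f range of 539 to 771 CPM. Erbb3d/d replicate 2 had 602 CPM, inside that range. With the smooth muscle covariate the log2 fold change was 0.21 (SE 0.20) for Thbd and 0.23 (SE 0.18) for F3.

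All 5 tested substrates had negative estimates, none called. Fn1, the matrix protein fibronectin, had 2303 ± 239 CPM and 1706 ± 583 CPM (SD, n = 4 per label; log2 fold change -0.43, SE 0.21, edgeR adjusted p = 0.452). Its value was -0.13 (SE 0.25) with the epithelial covariate and -0.16 (SE 0.20) with Erbb3d/d replicates 1 and 2 only. In that subset Erbb3d/d replicate 1 had 1540 CPM of Fn1, below the Erbb3f/f range of 1965 to 2519 CPM. Erbb3d/d replicate 2 had 2565 CPM, above that range. Hgf, a growth factor that serine proteases activate, had a log2 fold change of -0.44 (SE 0.20, edgeR adjusted p = 0.427), and -0.18 (SE 0.27) with the smooth muscle covariate. The fibrinogen chains Fga, Fgb and Fgg had 0 reads in each library. Without Erbb3d/d replicate 2, edgeR called 3 of 36 tested genes of the list, all lower, beside 259 of 14774 genes (1.75%), of which 116 were lower: F2r (log2 fold change -1.39, adjusted p = 0.0283), Fn1 (-0.69, adjusted p = 0.0354) and Pdgfd (-1.46, adjusted p = 0.0173), a platelet-derived growth factor that plasminogen activators can cut.

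**Figure D4:**
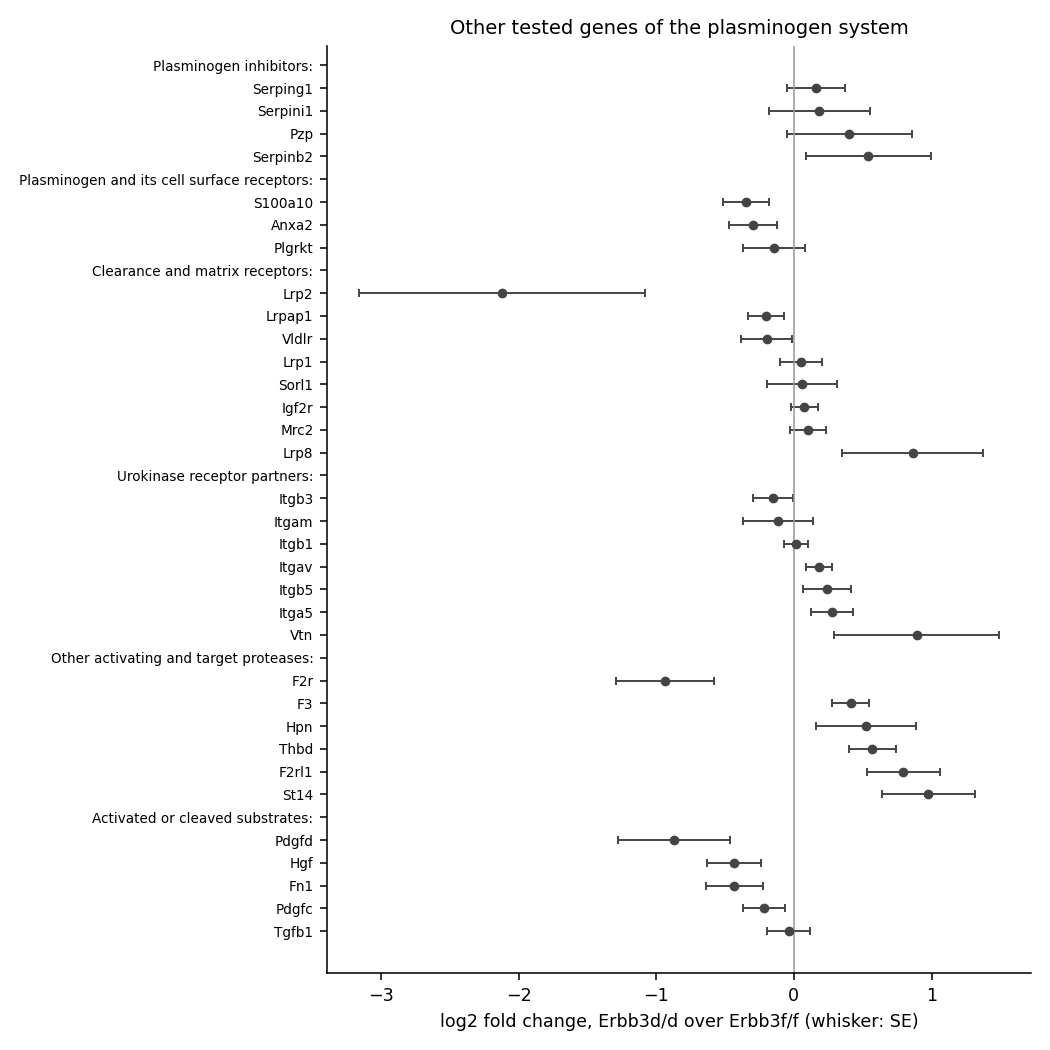
Log2 fold change of Erbb3d/d over Erbb3f/f (horizontal axis) for 33 of the 34 tested genes of the plasminogen system other than the 4 members, grouped by role (vertical axis). Points are estimates from edgeR and whiskers are 1 SE; 19 of those plotted lie above 0 and 14 below, and none was called over all genes.

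The size of each member's difference was followed over 19 other ways of processing or choosing libraries. Plau kept its direction in all 19, between 1.05 and 1.54 on the log2 scale. Because its libraries did not overlap between labels, leaving libraries out could not change its sign. The same values chose the gene, so nothing is read from the kept direction. Plat also kept its direction in all 19, between 0.49 and 1.38. Plaur ran from -0.15 to 0.68 and Serpine2 from -0.51 to 0.12, each with the same sign in 17 of 19.

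**Figure D5:**
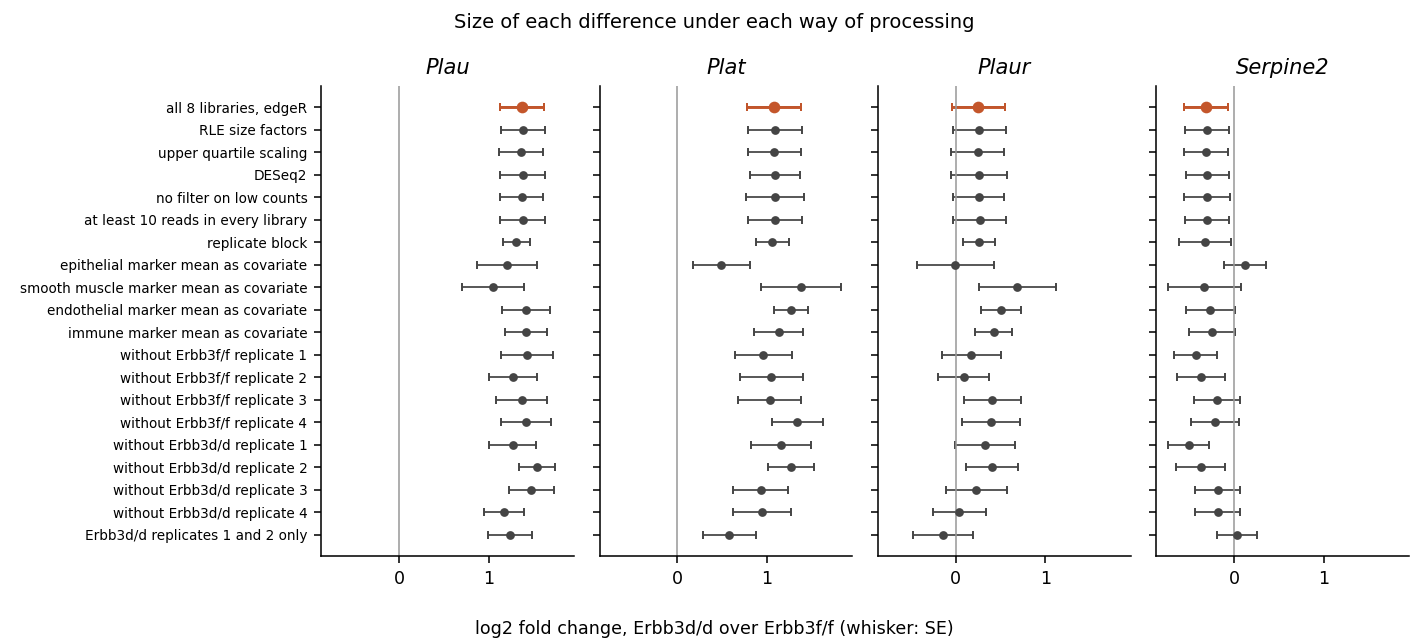
Log2 fold change of Erbb3d/d over Erbb3f/f (horizontal axis) of each member under each way of processing (vertical axis). The coloured point uses all 8 libraries with edgeR and whiskers are 1 SE; Plau stays between 1.05 and 1.54, while Plaur and Serpine2 each cross 0 in 2 of 19 alternatives.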

How the data were processed

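The authors deposited 1 table of raw read counts per library, with no normalization. HISAT2, SAMtools, HTSeq and StringTie, and the builds mm10 and GRCm38, are named in the submitters' processing notes. Their versions and counting options are not given in the sources used here, and the libraries were not directional, per the labels. The 5 lines of each table that name no gene were left out of library sizes and tests. They held all but 27.0% to 29.1% of entries.

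The members and the gene and marker lists were chosen with earlier results of these data known. Counts were filtered by filterByExpr, scaled by TMM and fitted with edgeR 4.0.16 (R 4.3.3) on genotype. The Benjamini-Hochberg threshold was 0.05. DESeq2 1.42.0 was an alternative. CPM uses the scaled library size, and correlations used log2 CPM with a prior count of 2. Marker list means were compared by exact permutation over 70 assignments (smallest p 0.0286). Lengths and positions came from GENCODE vM21. One gene of the plasminogen list is not reported here by itself. Named were all members, the most abundant gene per length in each role, the 3 smallest p-values in each direction and the 3 genes most like each member. On simulated counts for 14486 genes, the fit recovered 90% of 100 genes changed by 1.5 on the log2 scale, with 6 false calls. The simulated spread followed the trend over genes of like level, with no differences shared across a library. The members varied more than most such genes, so this recovery does not carry over to them or to these 8 libraries.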

Additional observations from a re-analysis of the deposited data

How the results depend on the processing

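The count of genes called by edgeR with all 8 libraries was 0. It was 271 with DESeq2, 204 with the endothelial and 35 with the immune marker mean as a covariate, and 0 to 259 when 1 library was left out, with every call arising without Erbb3d/d replicate 2. Genes called on the plasminogen list then numbered 0 to 3. With the replicate block, 52 of 14598 genes were called, Plau among them. With the endothelial covariate, Plau and Plat were among the 204 of 14598 genes called. Since the members were chosen from this contrast, nothing is read from those calls. Same-numbered libraries had correlations of 0.221, 0.159, 0.0959 and 0.145 after removing label means. Differently numbered ones ran from -0.296 to 0.302, the highest between Erbb3d/d replicate 3 and Erbb3f/f replicate 4. Erbb3f/f replicates 1, 2 and 3 each correlated best with the Erbb3d/d library of their own number. Whether the numbers mark pairs was not settled, and the main fit does not use them.

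The epithelial marker mean as a covariate gave log2 fold changes of 0.49 for Plat and 0.12 for Serpine2. Leaving out 1 library gave 1.17 to 1.54 for Plau, 0.93 to 1.34 for Plat, 0.04 to 0.41 for Plaur and -0.51 to -0.19 for Serpine2. The subset of Erbb3d/d replicates 1 and 2 was chosen after seeing the data. With the smooth muscle covariate Serping1 was -0.13 and Itgb1 -0.0278. Leaving out 1 library gave -0.0269 to 0.18 for Lrp1, negative without Erbb3f/f replicate 1 or 2, and -0.0312 to 0.0432 for Itgb1, negative without replicate 1 of either label. The difference in mean log2 CPM of epithelial markers ran from 0.39 to 0.66, passing 0.05 without Erbb3d/d replicate 1, and that of immune markers from -0.207 to 0.0536, positive without Erbb3f/f replicate 3. The causes were not tested. Depth limits Plaur most, at 63 to 210 reads.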

Other observations

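Lrp2, an endocytic receptor that takes up complexes of activator and serpin and that epithelia express, was the most variable gene of the plasminogen list and is named after its values were seen. It had 217, 151, 59.6 and 20.6 CPM in Erbb3f/f replicates 1 to 4 and 3.14, 85.0, 9.61 and 7.37 CPM in Erbb3d/d replicates 1 to 4. Erbb3d/d replicate 2 lay inside the Erbb3f/f range, and the other Erbb3d/d libraries lay below it. The log2 fold change was -2.12 (SE 1.04, edgeR adjusted p = 0.474).

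St14, the epithelial membrane protease matriptase, is also named after its values were seen. It ran from 26.5 to 57.3 CPM in the libraries labelled Erbb3f/f and from 43.7 to 103 CPM in those labelled Erbb3d/d. St14 was highest in Erbb3d/d replicates 3 and 4, the libraries with the highest epithelial marker means. Lrp2 went the other way there, at 9.61 and 7.37 CPM, below every Erbb3f/f library. The part of epithelial RNA in either gene was not tested.

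Eno1, the enolase listed as a plasminogen receptor, had at most 2 reads in any library, while Eno2 had 155 to 326 and Eno3 36 to 77. Eno1 is a glycolysis gene used by nearly all cells and has near-identical copies, so its count is uncertain here and no level is read from it.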
